A study of Arabidopsis thaliana with 6 samples.

Results

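The genes described here are those for 3 glycerol-3-phosphate dehydrogenases of Arabidopsis thaliana, GPDHC1 (AT2G41540), GPDHC2 (AT3G07690) and GPDHp (AT5G40610), and for 2 small secreted proteins of the lipid transfer kind, the DIR1-like protein AT5G48490 and AZI3 (AT4G12490). They were chosen by identity, as the probe sets whose single gene in the platform annotation is 1 of these 5. Each gene had 1 such probe set, so the 5 genes stand among 8819 that could be matched to a current gene entry. Distal leaves were taken from wild-type plants of the Columbia ecotype, 3 to 4 weeks old, 24 h after infiltration of a primary leaf. The mock group (3 arrays) received leaf exudate in MgCl2, and the G3P group (3 arrays) received the same kind of exudate with glycerol-3-phosphate (G3P) added. Every plant therefore received exudate, and no plant without exudate was analysed here. Neither the origin of the exudate nor the amount of G3P is stated in the sources used here. Each replicate was a separate set of plants, hybridized to its own Affymetrix ATH1 array, an oligonucleotide array read in 1 colour.

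G3P dehydrogenases interconvert dihydroxyacetone phosphate and G3P, a precursor of membrane lipids and a carrier of reducing equivalents between cytosol and mitochondrion. In systemic acquired resistance, a leaf that has met a pathogen sends signals that prepare distant leaves. G3P is known as 1 of the mobile inducers of that response, and DIR1 and AZI1, cysteine-rich proteins related to DIR1-like and AZI3, are known to be needed for it. The comparison asks whether G3P delivered to one leaf alters transcript levels in another, here those of genes that make G3P and of relatives of the proteins that act with it.

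None of the 5 genes changed past the test (limma, Benjamini-Hochberg adjusted p of 0.913 to 0.992). Of the 16129 probe sets tested 0% passed. At an unadjusted p under 0.05 limma called 0 of the 5, against 3.08% of all probe sets, and the groups did not overlap for 0 of the 5, against 8.64%. The values below are log2(signal + 16), where 16 is a constant added to steady dim signals, so the lowest possible value is 4 and differences of dim genes are understated. Differences are G3P minus mock with the standard error (SE) of the fit. The number of arrays limits their precision.

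Array G3P replicate 3 stood apart from the others and bears on 3 of the 5 genes. Across probe sets it correlated at 0.842 to 0.913 with the other arrays, whereas those correlated among themselves at 0.93 or more. GPDHC1, GPDHp and DIR1-like lay over 1 log2 unit below the lowest of the other 5 arrays there, as did 3.81% of all probe sets. Among the 16129 probe sets these were 614, and 609 lay over 1 log2 unit above the highest of the other arrays. The differences of the 5 genes are therefore given with and without that array. Leaving it out must raise the difference of any gene whose lowest G3P value is there, so such a rise is no separate result.

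**Figure D1:**
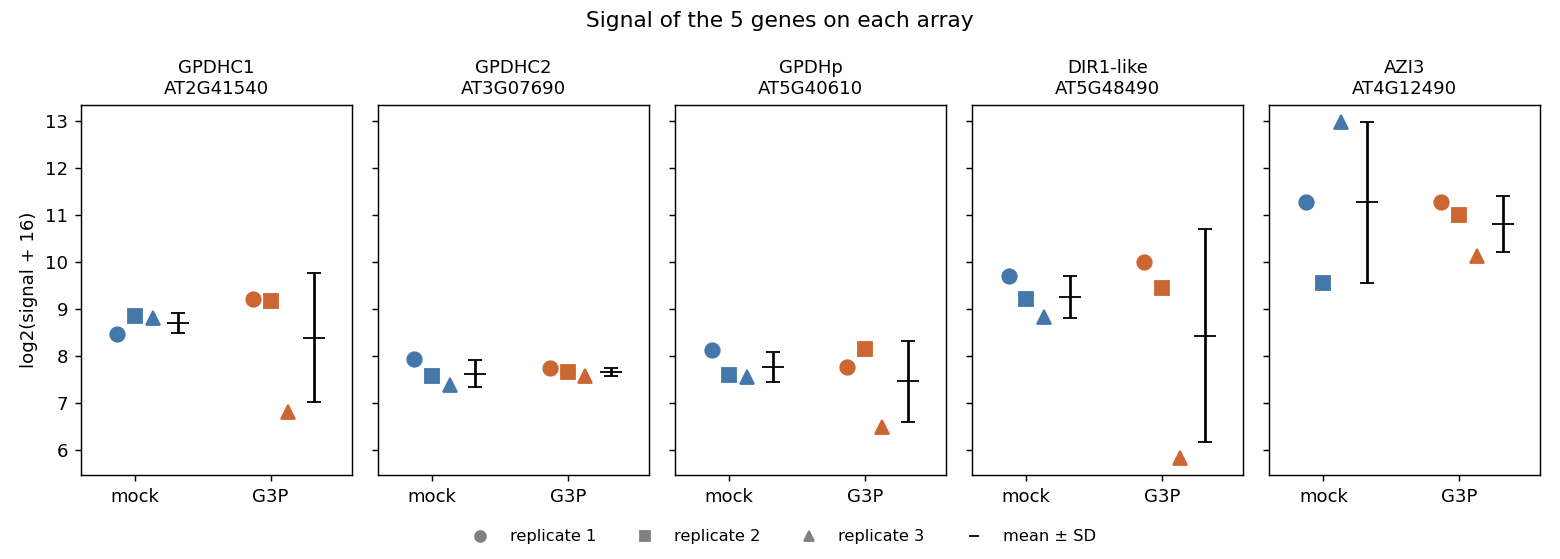
Signal of the 5 genes on the log2(signal + 16) scale (vertical axis) on the 3 mock arrays (blue) and the 3 G3P arrays (orange), with a symbol for each replicate and a bar for the mean and SD of each group. GPDHC1, GPDHp and DIR1-like had their lowest value on G3P replicate 3, at 6.81, 6.50 and 5.83, while AZI3 ranged from 9.55 to 12.97 within the mock group alone.

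GPDHC1 encodes a cytosolic, NAD-dependent G3P dehydrogenase known to take part in the shuttle of reducing equivalents to the mitochondrion. Its log2 signals were 8.47, 8.85 and 8.80 on mock replicates 1, 2 and 3, and 9.21, 9.16 and 6.81 on G3P replicates 1, 2 and 3. G3P replicates 1 and 2 were above every mock array and G3P replicate 3 was below every mock array, so the groups overlapped although no G3P value fell inside the mock range. As deposited signals, the mock arrays read 337.6 to 445.8, the first pair of G3P arrays 575.2 and 557.3, and G3P replicate 3 only 96.1. The group means were 8.71 ± 0.21 for mock and 8.39 ± 1.37 for G3P (SD, n = 3 each). The difference was -0.31 ± 0.60 (SE), with a 95% interval of -1.71 to 1.08 and an adjusted p of 0.945 in limma. The ratio of group medians, the measure named in the study's design, had the other direction, at 1.29.

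Without G3P replicate 3 the GPDHC1 difference turned to 0.48 ± 0.24 (limma, unadjusted p = 0.0812, adjusted p = 0.999). GPDHC1 was then the 1 gene of the 5 with groups apart, G3P being higher. Of all probe sets 8.86% were apart in that direction with the same 5 arrays, and 17% in either direction. At an unadjusted p under 0.05, 0 of the 5 genes and 2.71% of all probe sets were called in that fit.

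AT3G07690, called GPDHC2, encodes the other cytosolic G3P dehydrogenase. It was the steadiest of the 5, with log2 signals of 7.93, 7.58 and 7.38 in mock and 7.74, 7.67 and 7.57 in G3P leaves. All 3 G3P values lay inside the mock range, and G3P replicate 3 did not stand apart. The means were 7.63 ± 0.28 and 7.66 ± 0.09 (SD, n = 3 each), a difference of 0.02 ± 0.25 (limma, adjusted p = 0.992), and 0.07 ± 0.28 without G3P replicate 3. The 95% interval of -0.55 to 0.59 reached from 1.46-fold lower to 1.51-fold higher on this scale, so a change beyond those bounds is outside the interval and a smaller one is not. Among all probe sets 4.36% had a smaller SD among the G3P arrays.

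GPDHp encodes the plastid-targeted enzyme. Its log2 signals were 8.13, 7.60 and 7.56 in mock and 7.77, 8.14 and 6.50 in G3P leaves. G3P replicate 1 lay inside the mock range, G3P replicate 2 lay just above it (8.14 against 8.13), and G3P replicate 3 lay below it. The deposited signal there was 74.3, against 172.7 to 266.7 on the other 5 arrays. Means were 7.76 ± 0.32 and 7.47 ± 0.86 (SD, n = 3 each), and the difference was -0.29 ± 0.44 (95% interval -1.3 to 0.72, limma, adjusted p = 0.931). Without G3P replicate 3 it was 0.20 ± 0.30. The ratio of medians was 1.14.

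The 2 cytosolic dehydrogenase genes thus had unlike profiles on the same arrays. G3P replicate 3 lay 2.09 log2 units below the mean of the other 5 arrays for GPDHC1, 1.34 below for GPDHp, and 0.09 below for GPDHC2. TPI (AT3G55440), the cytosolic triose phosphate isomerase that supplies dihydroxyacetone phosphate, was the only other measured gene of a list of 22 genes of G3P synthesis, breakdown and transport. Its difference was -0.10 ± 0.17, and -0.08 without G3P replicate 3. Of the 4 measured genes of that list 3 had negative and 1 a positive difference, with 0 past the threshold and a median of -0.20. Without G3P replicate 3 the split was 1 negative and 3 positive, with a median of 0.13. The median over all probe sets was -0.03, and -0.01 without that array. The other genes of the list, among them the plastid G3P dehydrogenase GLY1, the glycerol kinase GLI1 and the mitochondrial G3P dehydrogenase SDP6, were without a named probe set and are not analysed here.

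**Figure D2:**
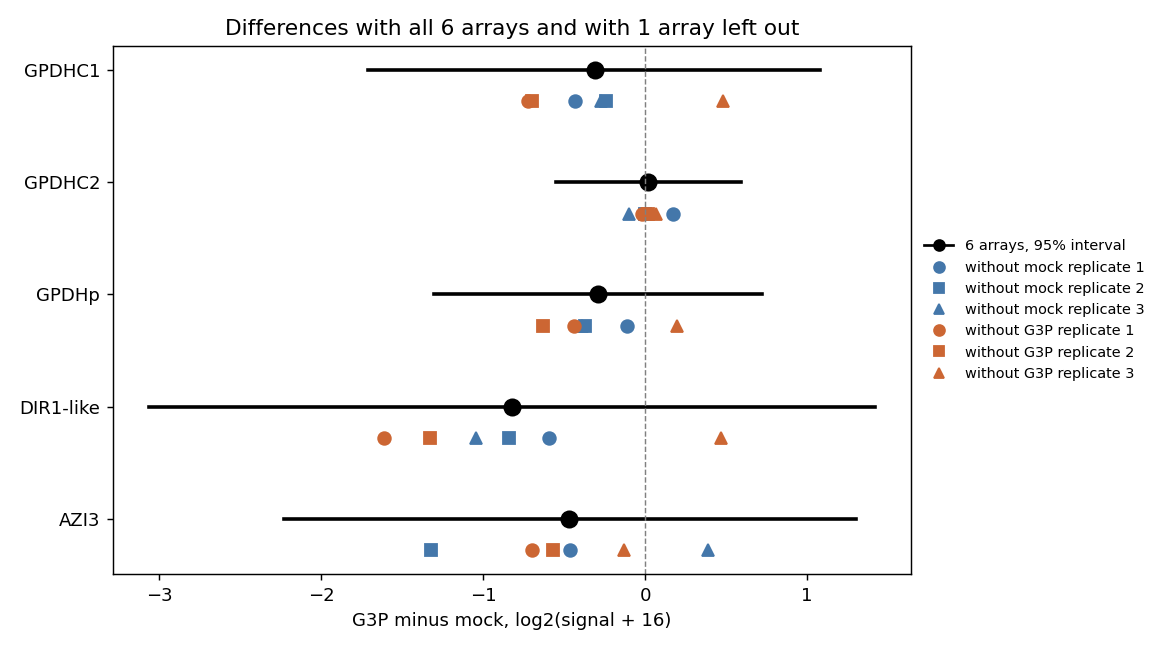
Difference G3P minus mock in log2(signal + 16) for each gene. Black points and lines are the limma estimate with its 95% interval over 6 arrays, and coloured symbols are the estimates with 1 array left out. All 5 intervals include 0, and the estimates of GPDHC1, GPDHp and DIR1-like turn positive (0.48, 0.20 and 0.47) without G3P replicate 3.

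AT5G48490, the DIR1-like gene, encodes a lipid transfer protein closely related to DIR1 and known to stand in for it in part. Its log2 signals were 9.71, 9.21 and 8.82 in mock and 10.0, 9.45 and 5.83 in G3P leaves. G3P replicate 1 was above all mock arrays, G3P replicate 2 was among them, and G3P replicate 3 was far below. In deposited signal that array read 41.1, which is 10.6-fold below the lowest of the other 5 arrays, mock replicate 3 at 435.1. The group means were 9.25 ± 0.45 and 8.43 ± 2.26 (SD, n = 3 each). The SD of the G3P group exceeded that of 99.4% of all probe sets.

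The DIR1-like difference was -0.82 ± 0.97, with a 95% interval of -3.06 to 1.42 and an adjusted p of 0.913 in limma. Without G3P replicate 3 it was 0.47 ± 0.32 (interval -0.26 to 1.21, limma, unadjusted p = 0.174). The ratio of medians was 1.18. DIR1 itself is the gene next to AT5G48490 in the RefSeq annotation (assembly TAIR10.1) and had no named probe set. Of the other genes within 3 places on either side, AT5G48480 and AT5G48500 were measured. They had differences of 0.06 ± 0.20 and 0.35 ± 0.27 (0.13 and 0.16 without G3P replicate 3), and neither was low on G3P replicate 3, at 9.83 and 8.47 against 9.75 to 10.18 and 7.50 to 8.0 on the other arrays. The low DIR1-like value was thus not shared by the measured genes beside it.

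AT4G12490, or AZI3, encodes a hybrid proline-rich protein of the AZI1 and EARLI1 family, which pairs a proline-rich stretch with a lipid transfer domain. Its spread lay within the mock group. The log2 signals were 11.27, 9.55 and 12.97 in mock and 11.28, 11.00 and 10.13 in G3P leaves, so every G3P array lay inside the mock range. In deposited signal the mock arrays read 2461.0, 735.9 and 8005.2, a 10.9-fold span, while the G3P arrays spanned 2.24-fold (1101.4 to 2463.5). The SD within mock, 1.71, was larger than that of 99.7% of all probe sets, whose median was 0.30.

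The AZI3 means were 11.27 ± 1.71 and 10.80 ± 0.60 (SD, n = 3 each), a difference of -0.47 ± 0.76 (95% interval -2.23 to 1.3, limma, adjusted p = 0.935). The estimate depended on mock arrays. It was 0.39 without mock replicate 3 and -1.32 without mock replicate 2 (limma, unadjusted p = 0.0505, adjusted p = 0.998). Without G3P replicate 3 it was -0.13 ± 0.80.

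The protein-coding gene next but 1 to AZI3 in the annotation, AT4G12500 (AZI4), followed the same profile. Its log2 signals were 9.77, 8.22 and 11.84 in mock and 9.71, 10.12 and 8.75 in G3P leaves, lowest on mock replicate 2 and highest on mock replicate 3, as for AZI3. Among 2649 named genes with a mean of at least 7 and a range of at least 1 log2 unit, AZI4 had the highest correlation with AZI3 over the 6 arrays (Pearson r = 0.980). Over the 5 arrays without G3P replicate 3 its r was 0.977, at rank 4. The difference of AZI4 was -0.41 ± 0.82 (limma, adjusted p = 0.946), and -0.03 without G3P replicate 3. The 2 genes belong to a tandem family of similar sequence, and hybridization of one transcript to the other's probes was not tested. AZI1 and EARLI1, also in this cluster, were without a named probe set.

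**Figure D3:**
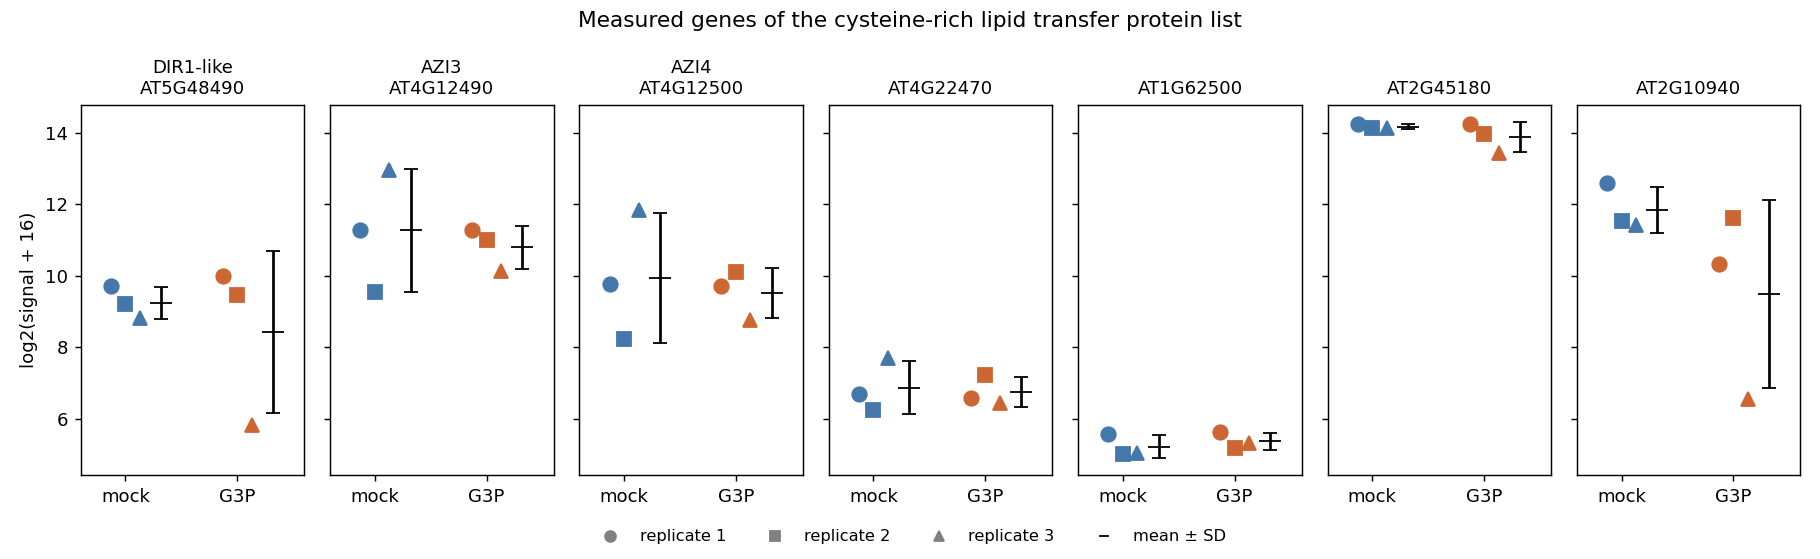
Log2(signal + 16) of the 7 measured genes of the cysteine-rich lipid transfer protein list on mock (blue) and G3P (orange) arrays, with a symbol for each replicate and a bar for mean and SD. AZI3 and AZI4 share a mock range of over 3 log2 units (3.42 and 3.62), and DIR1-like and AT2G10940 share a low value on G3P replicate 3 (5.83 and 6.56).

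A list of 29 genes for cysteine-rich lipid transfer proteins and hybrid proline-rich proteins had 7 measured members, DIR1-like and AZI3 included. Of their differences 6 were negative and 1 was positive, 0 passed the threshold, and the median was -0.41, against -0.03 over all probe sets. Without G3P replicate 3 the split was 4 negative and 3 positive, with a median of -0.03. The member with the most negative difference was AT2G10940, a hybrid proline-rich protein gene, with 12.59, 11.53 and 11.43 in mock and 10.32, 11.62 and 6.56 in G3P leaves. It had -2.35 ± 1.13 (limma, unadjusted p = 0.0708, adjusted p = 0.912), and -0.88 without G3P replicate 3. AT4G22470, another hybrid proline-rich protein gene, had a difference of -0.13 ± 0.43 (0.03 without G3P replicate 3), with its highest value on mock replicate 3 (7.69) and its lowest on mock replicate 2 (6.23), the same extremes as AZI3 and AZI4. AT2G45180 had -0.28 ± 0.24, and -0.06 without G3P replicate 3, at log2 signals of 13.44 to 14.26. AT1G62500 had 0.16 ± 0.39, and 0.19 without G3P replicate 3, at 5.0 to 5.63, so near the lowest value of the scale that a change in signal is compressed.

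The genes most like each of the 5 were taken as the 3 with the highest Pearson r over the 6 arrays, among the named genes that met the limits on mean and range given for AZI4. These are descriptions of 6 shared arrays, the highest of about 2650 values each, and carry no test. For GPDHC1 they were AT5G24490 (r = 0.993), AT1G64510 (0.991) and AT4G01460 (0.987). The first pair encode plastid ribosomal proteins or relatives of them, and AT4G01460 a bHLH transcription factor. Over the 5 arrays without G3P replicate 3 the 3 genes had r of 0.933, 0.933 and 0.852, at ranks 28, 29 and 101.

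For GPDHp they were AT5G66560, a gene of the NPH3 family (r = 0.993), the receptor-like kinase gene AT2G27060 (0.992) and the aspartyl protease gene AT3G52500 (0.990). Over the 5 arrays these had 0.972, 0.965 and 0.950, at ranks 10, 13 and 20. For DIR1-like they were Fes1B, a cofactor of Hsp70 chaperones (0.996), AT4G12980 (0.994) and the expansin gene EXPA8, which acts in cell wall loosening (0.993). Their r was 0.956, 0.926 and 0.904 over the 5 arrays, at ranks 8, 25 and 42. EXPA8 had 10.74 to 12.35 on the other 5 arrays and 6.08 on G3P replicate 3. All 9 of these genes, like GPDHC1, GPDHp and DIR1-like, had their lowest value on G3P replicate 3. Their choice by r over the 6 arrays favours such genes, so the shared low array is no separate result.

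GPDHC2 and AZI3 were matched by other genes. For GPDHC2 these were AT3G29230 (r = 0.969), the DEAD-box RNA helicase gene AT2G42520 (0.965) and AT1G20220 (0.949), which were highest on mock replicate 1 and lowest on mock replicate 3, as GPDHC2 was. Over the 5 arrays r was 0.987, 0.973 and 0.969. For AZI3 they were, after AZI4, AT5G40450 (0.971) and AT3G05900 (0.935), with 0.992 and 0.945 over the 5 arrays. AT5G40450 had 10.43, 9.47 and 11.40 in mock and 10.46, 10.09 and 9.32 in G3P leaves.

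The leaf label was checked against the 7 measured genes of a list of 26 for photosynthesis in mesophyll. They had log2 signals of 8.81 to 14.97 in mock and 9.02 to 14.62 in G3P leaves. On G3P replicate 3 the log2 of their summed signal was 15.68, against 16.68 to 16.99 on the other 5 arrays. Of the 7, 2, PSAN and LHCB4.2, were there more than 1 log2 unit under every other array. LHCB4.1 and PSBW were also lowest there, by less than 1 log2 unit. RCA, PRK and LHCB4.3 were not lowest there, at 13.36, 13.12 and 9.02 against 13.13, 13.07 and 8.81 on their lowest arrays. Of 17 markers of other cell types and organs 2 were measured. The guard cell gene FAMA had 7.67 to 8.52 over all arrays. The root gene PYK10 had 4.62 to 6.76, highest on G3P replicate 3, with mock replicate 1 next at 6.55. In whole leaves, fewer cells of a type and less RNA per cell cannot be told apart, and the part of leaf composition or of RNA quality in the low values of GPDHC1, GPDHp and DIR1-like was not tested.

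**Figure D4:**
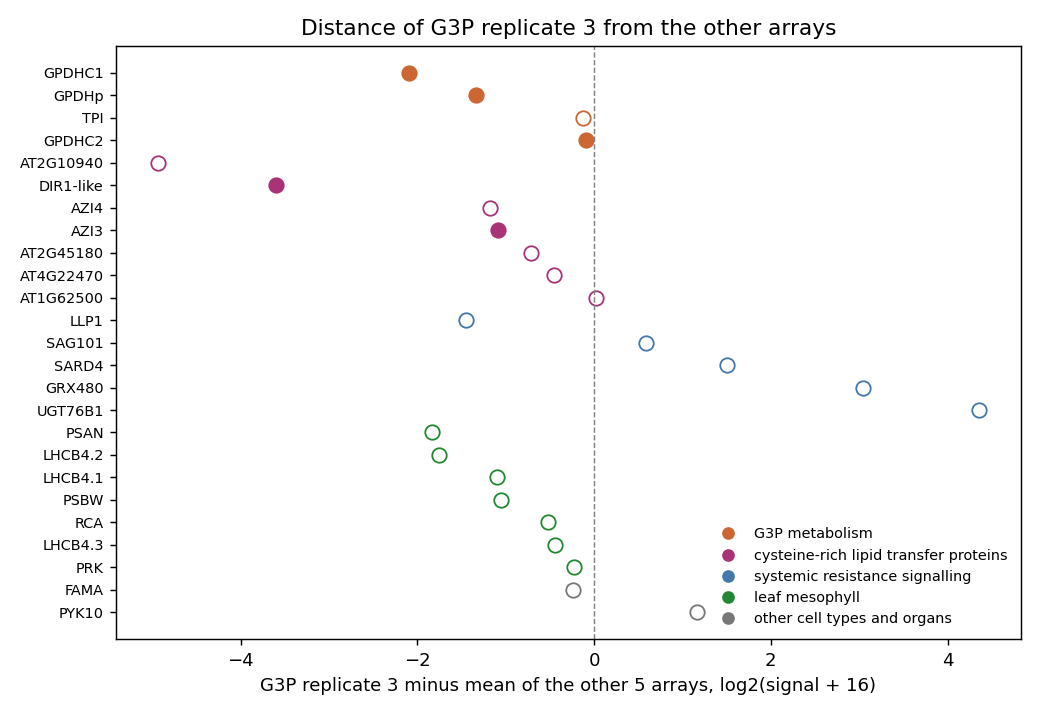
Distance of G3P replicate 3 from the mean of the other 5 arrays in log2(signal + 16) (horizontal axis) for each measured gene of the lists, filled for the dehydrogenase genes, DIR1-like and AZI3 and open for the others, coloured by list. Distances ran from -4.94 for AT2G10940 to 4.36 for UGT76B1, whose other arrays lay near the lowest value of the scale. They were -3.60 for DIR1-like, -2.09 for GPDHC1 and -0.09 for GPDHC2.

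Of a list of 26 systemic resistance genes 5 were measured and 0 passed the threshold. On G3P replicate 3 the distance from the mean of the other 5 arrays was positive for 4 of them and negative for 1. The glycosyltransferase gene UGT76B1, which acts on immune regulators, was at 4.36, the glutaredoxin gene GRX480 at 3.04, SARD4, of pipecolic acid synthesis, at 1.5 and SAG101 at 0.59, while the lectin-like gene LLP1 was at -1.45. Of all 16129 probe sets, 609 lay over 1 log2 unit above every other array on G3P replicate 3, and 614 below. UGT76B1 read 4.25 to 6.33 on the other 5 arrays, near the lowest value of the scale. The size of its distance and of its difference therefore depends on the added constant. The differences of UGT76B1, GRX480 and LLP1 were 0.96 ± 1.25, 0.60 ± 0.94 and -0.57 ± 0.40 with 6 arrays, and -0.61, -0.52 and -0.10 without G3P replicate 3. SARD4 had 0.77 ± 0.40, and 0.34 without that array. Lists for the acylation of G3P into glycerolipids (22 genes) and for galactolipids and fatty acid desaturation (15 genes) had 0 measured members.

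Few genes beside the dehydrogenase genes were measured. Within 3 places of GPDHC2, AT3G07660 had a difference of -0.56 ± 0.33, AT3G07670 one of -0.05 ± 0.21 and AT3G07720 one of 0.26 ± 0.31. These were -0.46, -0.16 and 0.03 without G3P replicate 3. Beside GPDHp, AT5G40600 had 0.26 ± 0.34 (0.18 without G3P replicate 3), and it read 7.55 on G3P replicate 3 against 6.70 to 7.72 elsewhere. None of these neighbours passed the test (limma, adjusted p of 0.912 to 0.975). No neighbour of GPDHC1 within 3 places had a named probe set.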

How the data were processed

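Per the submitters' processing notes, the deposited intensity values came from Affymetrix Expression Console 1.0, a linear signal for each probe set on each array. How probes were summarized and scaled, and why the table lists these 16129 probe sets, is not given in the sources used here. Array medians of log2(signal + 16) differed by at most 0.206, within the limit of 0.3 set for centring, so signals were used as deposited. Trimmed means of the arrays were 747.3 to 754.4. Groups came from the sample labels. Signals were taken as log2(signal + 16) and tested in R 4.3.3 with limma 3.58.1 (lmFit and trended eBayes on the 6 arrays, without covariates), adjusted over all probe sets by Benjamini-Hochberg with a threshold of 0.05. The study's rank-sum test was an alternative, since its exact p cannot go below 0.1.

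Of the probe sets 8950 named 1 gene, and 339 named several and were left unnamed; 6840 had no entry. The named genes were the 5 members, the measured genes of the 2 nearest lists, the 3 genes most like each member, and measured neighbours. Of each other list the plan was to name up to 4 by smallest p, but all measured genes of these lists were named. The members and the 7 lists were chosen with earlier results of these data known. Protein, promoter and probe sequences and coordinates were not used here.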

Additional observations from a re-analysis of the deposited data

How the results depend on the processing

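No member passed the threshold under any of 18 alternatives (limma adjusted p of 0.699 or more), nor did any probe set (0 in each). The rank-sum test could give no call. GPDHC2 and GPDHp were not in the fit without the dimmest 50% of probe sets. Array quality weights turned GPDHC1 to 0.058, GPDHp to 0.069 and AZI3 to 0.38, and moved DIR1-like to -0.11. Log2 ratios of medians were 0.37 for GPDHC1, 0.19 for GPDHp and 0.24 for DIR1-like. The cause of these turns was not tested. With single arrays left out, differences ran from -0.72 to 0.48 for GPDHC1, -0.10 to 0.17 for GPDHC2, -0.63 to 0.20 for GPDHp, -1.61 to 0.47 for DIR1-like and -1.32 to 0.39 for AZI3. GPDHC2 turned to -0.10 and -0.002 without mock replicates 3 and 2, and to -0.017 without G3P replicate 1. The members with groups apart numbered 0 to 1 of 5, where 14.2% to 24.9% of all probe sets were apart. With a mock and a G3P array for each replicate number, that number as a block cannot alter the differences, only their errors. It called 0 probe sets. The members' unadjusted limma p ran from 0.254 (DIR1-like) to 0.932 (GPDHC2), against 0.421 to 0.928 without the block. Deviations of same-numbered arrays correlated at 0.0061, -0.102 and 0.314, and those of differently numbered arrays at -0.368 to 0.451. The numbers were not taken to pair the plants, though 3 arrays per group cannot show that the plants were unpaired. Leaving out arrays for the lists and for the groups apart was chosen after seeing the data. The number of arrays limits all estimates.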
